A study of Macaca mulatta with 304 samples.

Results

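The blood transcriptome 210 days after irradiation of the upper thorax was compared with the blood of the same rhesus macaques (Macaca mulatta) before irradiation. Every animal with both a Day 210 library and a control library was included and paired by its animal number, which gave 6 of 28 animals and 12 of 304 libraries. The controls were drawn 2 days before exposure. Animals B1003 and B1004 were males and B1502, B1503 and B1505 were females, all given 9.8 Gy, and the female B2502 was given 10.7 Gy. The animals were healthy adults of the Chinese sub-strain, 3 to 5 years old at the start. All were given the pain relievers tramadol or buprenorphine in the first weeks after irradiation, and dexamethasone could be given for fast breathing. No unirradiated animals were followed to Day 210, so time since the control, age and irradiation cannot be told apart, and all 6 animals were long-term survivors. With a single animal at the higher dose, the doses were not compared.

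Irradiation of the chest exposes lung, heart, thymus, thoracic marrow and circulating blood. B cells are among the most radiosensitive blood cells, whereas mature neutrophils are short-lived cells that the marrow replaces continuously. Delayed injury of the lung, with pneumonitis followed by fibrosis, develops over weeks to months after such an exposure. Whole blood RNA reflects the mix of leukocytes, platelets and young red cells as well as their state. In such bulk samples, fewer cells of a type and less RNA per cell cannot be told apart.

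Controls held 10851683 to 13575225 counts and Day 210 libraries 6281425 to 9023805, a lower depth in every Day 210 library. All 6 Day 210 library names end in S0 and all 6 controls in another number, whose meaning is not given in the sources used here, so the library series and the day cannot be told apart. For that reason values against S0 controls of 4 other animals, which are unpaired, are given where they end a call. Those 4 animals, males and females, were later given the higher dose, and none has a library as late as Day 210. Most Day 210 animals were given the lower dose, and all were long-term survivors. That comparison therefore changes the animals as well as the library series, and the part of each in a lost call was not tested. Levels are CPM, the counts of a gene relative to the library total scaled by the upper quartile. The 8 Y-linked genes analysed summed to at most 2.56 CPM in females and at least 448 CPM in males, as labelled. Mean GC content of the counts was 49.9% to 51.7% in the controls and 50.1% to 51.98% at Day 210.

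A gene was called where it passed both thresholds, 1.5 for the fold change and 0.05 for the adjusted p. With the quasi-likelihood test in edgeR, 1740 of 13751 tested genes were higher and 2311 lower at Day 210, which is 12.7% and 16.8% (29.5% together). All 6 animals moved the same way for 3170 of these 4051 genes. Genes picked below by size of change were taken from those 3170, so their count of 6 of 6 animals was set by the choice. The 2 groups did not overlap for 1394 of the 4051 called genes, and for 1631 of all tested genes (11.9%). The median log2 fold change of all tested genes was -0.13. Genes called higher made up 42.95% of calls, against 53.9% with TMM scaling (median -0.04) and 57.9% with DESeq2 (median -0.01), so directions are read beside the median of all genes. Among the fifth of genes lowest in GC the median was -0.36, and among the fifth highest in GC it was 0.17. Offsets for GC content and transcript length in each library left 2036 genes higher and 1355 lower. Against the S0 controls of other animals 967 of 13751 tested genes were higher and 830 lower (13.1% together). List counts from that comparison are read beside these. The share of the GC pattern in single results was not tested.

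**Figure D1:**
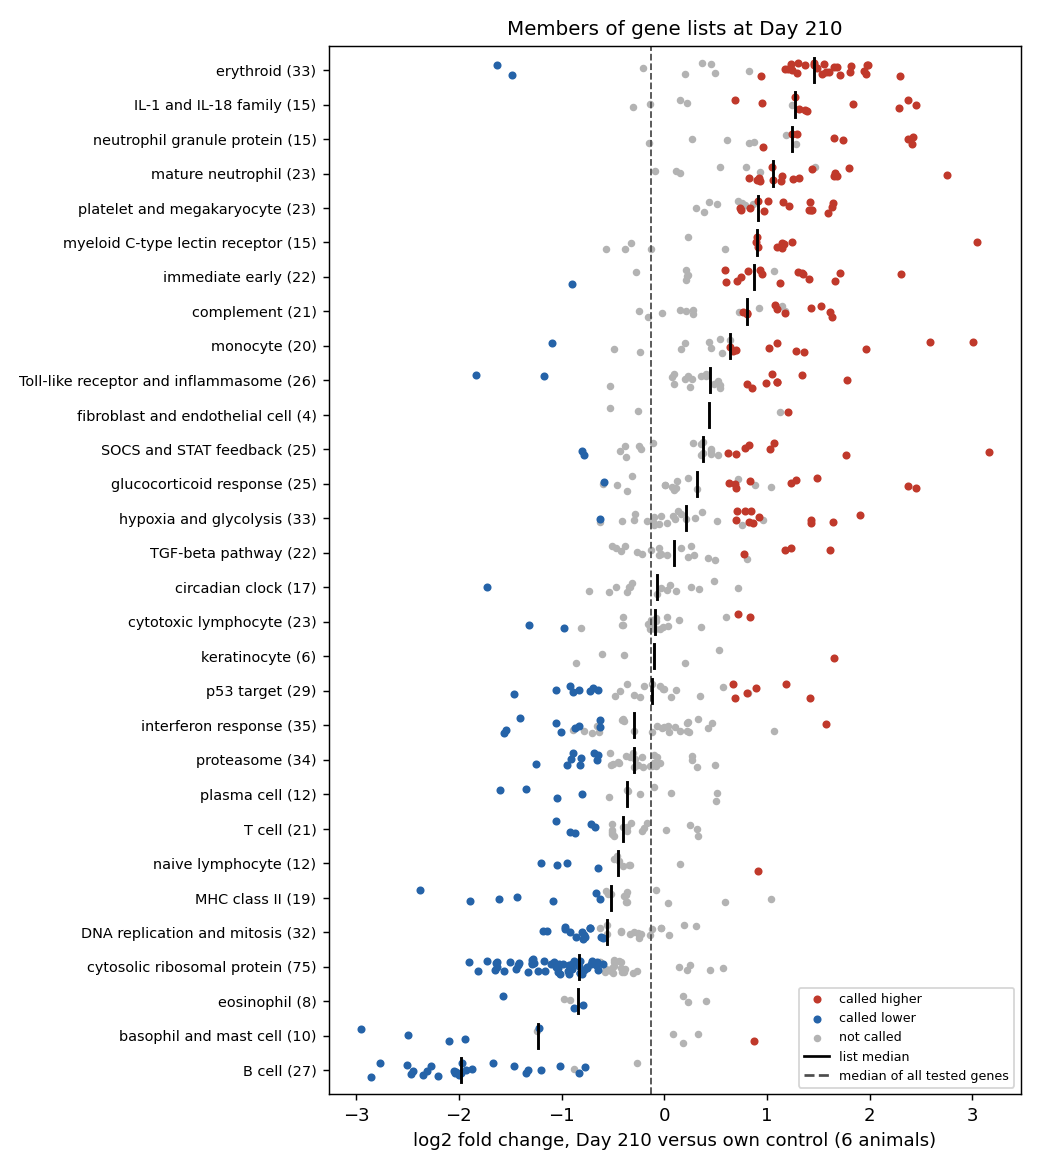
Log2 fold change of each tested member of the gene lists at Day 210 versus own control (x axis), with the number of tested members in brackets. Points are genes, red called higher, blue called lower and grey not called, black bars are list medians and the dashed line is the median of all tested genes; the B cell list (median -1.98) lies at the bottom and the erythroid list (median 1.46) at the top.

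B cell genes were the group with the lowest median. Of 27 tested genes, 25 fell and 0 rose, and the list median was -1.98 on the log2 scale against -0.13 for all tested genes. CD79B ranged from 149.6 to 358.1 CPM (median 181.5) in the controls and from 9.53 to 51.4 CPM (median 31.99) at Day 210. CD79B (chromosome 16, 60488425 to 60492051 in Mmul_10) encodes a signalling chain of the B cell receptor. Its level fell in every animal without overlap of the groups, with a log2 fold change -2.85 (SE 0.25, edgeR adjusted p = 5.67e-05, lower in 6 of 6 animals). CD22 ranged from 43.996 to 173.8 CPM (median 72.9) in the controls and from 5.31 to 28.4 CPM (median 15.4) at Day 210. CD22 (chromosome 19, 34758258 to 34781500), an inhibitory co-receptor of B cells, also showed no overlap, with a log2 fold change -2.50 (SE 0.19, edgeR adjusted p = 3.15e-05, lower in 6 of 6 animals). TCL1A, a gene of naive B cells, fell with a log2 fold change of -2.77 but its groups overlapped. The surface marker MS4A1 (-2.46), the transcription factors PAX5 (-2.27) and EBF1 (-1.98) and the kinase BLK (-1.97) fell by similar amounts. The 2 members that were not called were VPREB3 (-0.88, edgeR adjusted p = 0.149) and BTK (-0.27, edgeR adjusted p = 0.146), a kinase that myeloid cells express too. The summed level of the list was 1580.8 to 3969.7 CPM in the controls and 411.5 to 950.2 CPM at Day 210, so the ranges did not overlap. Against the S0 controls of other animals 24 members were lower, and with the GC and length offsets 25 were lower (median -1.75).

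Antigen presentation genes that B cells share were lower in part. In the MHC class II list 7 of 19 genes fell (median -0.52). MAMU-DOB and MAMU-DOA, which encode the DO molecule of B cells, had log2 fold changes of -2.38 and -1.61, and CD1C, a lipid-presenting molecule, -1.89. MAMU-DRA, expressed by all antigen-presenting cells, fell by 0.63 on the log2 scale, and CD74, the invariant chain, was not called (-0.36, edgeR adjusted p = 0.161). Reads of these polymorphic, related genes may be split between copies, so their values are uncertain. Of the plasma cell list 4 of 12 fell, among them JCHAIN (-1.60), which joins IgA and IgM chains, CD38 (-1.35) and MZB1 (-1.05). MAMU-DRA, JCHAIN and MZB1 were not called against the S0 controls of other animals, at -0.41, -0.56 and -1.20 (edgeR adjusted p = 0.0543 to 0.409). MAMU-DRA was not called with the GC and length offsets, at -0.30 (edgeR adjusted p = 0.250).

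The T cell list had a smaller median. Of 21 genes 5 fell (median -0.40), where 16.8% of all tested genes were called lower. Among the 5 were CD28 (-1.06), CD3D (-0.92), THEMIS (-0.71) and CD3G (-0.68), while CD3E (-0.17) and CD8A (0.33) were not called. CD28 ranged from 60.1 to 105.5 CPM (median 84.8) in the controls and from 27.6 to 85.4 CPM (median 33.2) at Day 210. CD28, the main costimulatory receptor of T cells, was lower at Day 210 in 5 animals than in any control, and B1505 lay within the range of the controls. Of 12 naive lymphocyte genes 4 fell, IL7R (-1.20), CCR7 (-1.04), LEF1 (-0.94) and TCF7 (-0.65), and KLF2 rose (0.91). In the cytotoxic lymphocyte list KLRB1 (-1.31) and GZMB (-0.98) fell, NCR3 (0.84) and CST7 (0.72) rose, and 19 of 23 genes were not called, among them PRF1 (-0.01), the pore-forming perforin. CD3D, CD3G, KLF2, KLRB1, NCR3 and CST7 were not called against the S0 controls of other animals, at -0.53, -0.53, 0.08, -1.04, 0.92 and -0.07 (edgeR adjusted p = 0.0501 to 0.883). CD3G was not called with the GC and length offsets, at -0.20 (edgeR adjusted p = 0.271), and THEMIS fell short of the fold threshold there, at -0.44.

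Of 10 basophil and mast cell genes 5 fell and 1 rose (median -1.23). The summed level of the list did not fall. It was 107.6 to 244.9 CPM (median 162.0) in the controls and 136.3 to 348.5 CPM (median 201.3) at Day 210. MS4A2 ranged from 0.676 to 5.15 CPM (median 2.29) in the controls and from 0 to 1.05 CPM (median 0.244) at Day 210. MS4A2 and FCER1A are chains of the high-affinity IgE receptor, with log2 fold changes of -2.96 and -2.099, and CPA3, a mast cell protease, had -2.49. The groups overlapped for these genes, which lay at a few CPM. FCER1A and CPA3 were not called against the S0 controls of other animals, at -1.25 and -1.68 (edgeR adjusted p = 0.184 to 0.218). FCER1A and CCR3 were not called with the GC and length offsets, at -1.56 and -0.57 (edgeR adjusted p = 0.0556 to 0.154). Of 8 eosinophil genes, HRH4 (-1.57), CCR3 (-0.88) and PTGDR2 (-0.79) fell and the others were not called. The summed level of the eosinophil list was 207.1 to 432.2 CPM in the controls and 261.05 to 413.4 CPM at Day 210. Against the S0 controls edgeR called 0 eosinophil genes, with 1 at an unadjusted p under 0.05.

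Neutrophil genes were higher. Of 23 mature neutrophil genes 16 rose and 0 fell (median 1.06). CD177 ranged from 20.2 to 137.1 CPM (median 64.001) in the controls and from 173.96 to 1075.4 CPM (median 369.2) at Day 210. CD177 (chromosome 19, 43427669 to 43445856) encodes a neutrophil surface glycoprotein. It rose without overlap of the groups, with a log2 fold change 2.75 (SE 0.47, edgeR adjusted p = 0.00199, higher in 6 of 6 animals). MMP25 ranged from 299.1 to 749.005 CPM (median 574.5) in the controls and from 1122.5 to 2329.2 CPM (median 1607.8) at Day 210. MMP25, a membrane-bound protease of neutrophils, also showed no overlap, with a log2 fold change 1.68 (SE 0.16, edgeR adjusted p = 3.80e-05, higher in 6 of 6 animals). The chemokine receptors CXCR2 (1.44) and CXCR1 (1.13), the growth factor receptor CSF3R (1.31) and MMP9 (1.66) rose, whereas S100A8 (0.54, edgeR adjusted p = 0.457) and S100A12 (1.47, edgeR adjusted p = 0.0573) were not called. The summed level of the list was 3878.5 to 9469.2 CPM in the controls and 10544.6 to 18822.3 CPM at Day 210.

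Granule protein genes, which are transcribed in neutrophil precursors, rose in 8 of 15 cases (median 1.25). LCN2 ranged from 0.787 to 4.70 CPM (median 2.12) in the controls and from 4.35 to 26.9 CPM (median 10.8) at Day 210. LCN2, an iron-sequestering granule protein, had a log2 fold change 2.41 (SE 0.44, edgeR adjusted p = 0.00213, higher in 6 of 6 animals), and its groups overlapped. RETN (2.37), BPI (1.74), MPO (1.25) and CAMP (0.96) rose as well. MMP8 rose by 2.42 but was not called without B2502 (2.16, edgeR adjusted p = 0.116) or without B1004 (2.28, edgeR adjusted p = 0.0504). Of 20 monocyte genes 10 rose, including LILRB4 (2.59), an inhibitory receptor, SLC11A1 (1.96), a metal transporter of phagosomes, and CD163 (1.28). CD14 was not called (0.64, edgeR adjusted p = 0.0603). CD36 fell by 1.09 on the log2 scale. CD36 was not called against the S0 controls of other animals, at -0.10 (edgeR adjusted p = 0.924). It was also not called with the GC and length offsets (-0.67, edgeR adjusted p = 0.182), under TMM scaling (-0.998, adjusted p = 0.0505) or DESeq2 (-0.94, adjusted p = 0.0606), nor without B1003 (-1.02, edgeR adjusted p = 0.0948), without B1503 (-0.98, edgeR adjusted p = 0.0968) or without B1505 (-0.79, edgeR adjusted p = 0.0951). Against S0 controls of other animals 21 of 23 mature neutrophil genes, 8 of 15 granule protein genes and 8 of 20 monocyte genes were higher.

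Interleukin-1 acts through IL1R1 with IL1RAP, and IL1RN and the decoy receptor IL1R2 restrain it. Of 15 genes of the IL-1 and IL-18 family 10 rose and 0 fell (median 1.28). IL1RN ranged from 7.01 to 16.8 CPM (median 9.15) in the controls and from 25.2 to 83.4 CPM (median 54.997) at Day 210. The antagonist IL1RN (chromosome 13, 16298692 to 16314460) rose without overlap, with a log2 fold change 2.28 (SE 0.32, edgeR adjusted p = 0.000679, higher in 6 of 6 animals). IL1R2 ranged from 11.8 to 68.1 CPM (median 24.97) in the controls and from 56.6 to 317.3 CPM (median 113.6) at Day 210. The decoy receptor had a log2 fold change 2.37 (SE 0.34, edgeR adjusted p = 0.000884, higher in 6 of 6 animals) and overlapping groups. The ligands IL1B (1.39) and IL18 (0.95), the signalling receptors IL1R1 (1.84), IL1RAP (1.28), IL18R1 (1.32) and IL18RAP (2.45), the adaptor MYD88 (0.69) and the inhibitor IRAK3 (1.37) rose. IL1RL1, the IL-33 receptor, was not called (1.25, edgeR adjusted p = 0.133), and was called without B1502 (1.77, edgeR adjusted p = 0.0171). Against S0 controls of other animals 8 of the 15 were higher. IL18 and IL18R1 were not called against the S0 controls of other animals, at 0.63 and 1.52 (edgeR adjusted p = 0.0960 to 0.346).

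Pattern recognition genes of myeloid cells rose in part. Of 15 C-type lectin receptor and adaptor genes 9 rose and 0 fell (median 0.90). CLEC4D ranged from 0.254 to 1.14 CPM (median 0.535) in the controls and from 0.599 to 14.1 CPM (median 5.62) at Day 210. CLEC4D, a receptor for microbial glycolipids, had a log2 fold change 3.04 (SE 0.48, edgeR adjusted p = 0.000675, higher in 5 of 6 animals). It was not called against the S0 controls of other animals, at 1.96 (edgeR adjusted p = 0.132). CLEC7A, which binds beta-glucan, rose by 1.14, and the adaptors FCER1G, TYROBP and CARD9 by 1.10, 1.17 and 0.92. In the Toll-like receptor and inflammasome list 8 of 26 genes rose, including TLR5 (1.78), TLR4 (0.99), TLR2 (0.85) and the inflammasome sensor MEFV (1.34). The 2 that fell, TLR7 (-1.83) and TLR10 (-1.17), are known to be expressed in B cells. The part of B cells in these falls was not tested. Of 21 complement genes 10 rose and 0 fell, led by the receptors C5AR1 (1.64) and C3AR1 (1.61), C5 (1.52) and the integrin ITGAM (1.43). C1QB was not called (1.15, edgeR adjusted p = 0.139), but was without B1505 (1.52, edgeR adjusted p = 0.0419). Against S0 controls of other animals 2 of 15 C-type lectin genes, 9 of 26 Toll-like receptor genes and 8 of 21 complement genes were higher. CLEC7A, FCER1G, TYROBP and C5 were not called against the S0 controls of other animals, at 1.39, 0.98, 0.49 and 1.76 (edgeR adjusted p = 0.0992 to 0.163).

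SOCS3, which is induced by cytokines through STAT3 and inhibits their receptors, had the largest increase among the genes named by the rule. SOCS3 ranged from 15.3 to 38.9 CPM (median 20.1) in the controls and from 133.4 to 270.6 CPM (median 194.7) at Day 210. The gene (chromosome 16, 74717689 to 74719374) rose without overlap of the groups, with a log2 fold change 3.16 (SE 0.26, edgeR adjusted p = 4.66e-05, higher in 6 of 6 animals), and its log2 fold change against S0 controls of other animals was 2.43 (edgeR adjusted p = 0.00279). In the SOCS and STAT feedback list 8 of 25 genes rose, among them BCL3 (1.77), OSM (1.06), CISH (1.03) and IL6R (0.79), and IL6ST (-0.78) and SOCS4 (-0.80) fell. STAT3 was not called (0.52, edgeR adjusted p = 0.00866). Of 22 immediate early genes 15 rose and DUSP2 (-0.90) fell (median 0.87). FOSB ranged from 9.23 to 13.8 CPM (median 12.1) in the controls and from 21.4 to 103.5 CPM (median 65.4) at Day 210. FOSB, a subunit of the AP-1 factor, did not overlap between groups, with a log2 fold change 2.30 (SE 0.21, edgeR adjusted p = 3.80e-05, higher in 6 of 6 animals). FOS (1.35), EGR1 (1.31), JUNB (1.13) and ZFP36 (1.66), which destabilises cytokine messages, rose with it. Against S0 controls of other animals 7 of 25 SOCS and STAT genes and 9 of 22 immediate early genes were higher. CISH, IL6ST, SOCS4, DUSP2 and EGR1 were not called against the S0 controls of other animals, at 0.35, -0.59, -0.50, -1.05 and 0.32 (edgeR adjusted p = 0.0551 to 0.630). IL6ST and SOCS4 fell short of the fold threshold with the GC and length offsets, at -0.52 and -0.42.

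Because dexamethasone could be given, glucocorticoid-responsive genes were read separately. FKBP5 and TSC22D3, strongly induced by glucocorticoids, had log2 fold changes of 0.12 (edgeR adjusted p = 0.668) and 0.10 (edgeR adjusted p = 0.729). FKBP5 ranged from 137.9 to 238.5 CPM (median 205.2) in the controls and from 150.6 to 328.5 CPM (median 191.3) at Day 210, so its groups overlapped widely. Of 25 genes 9 rose and 1 fell (median 0.32), where 12.7% of all tested genes were called higher. CEBPD (1.49) and IRS2 (1.24) were among those that rose, as were IL1R2, IL18RAP and CD163, which also belong to the lists above. The p53 targets were split, with 6 of 29 higher and 8 lower (median -0.12). Of all tested genes 12.7% were called higher and 16.8% lower. CDKN1A ranged from 36.02 to 70.04 CPM (median 51.2) in the controls and from 80.5 to 276.2 CPM (median 124.99) at Day 210. CDKN1A, the p21 inhibitor of the cell cycle, rose without overlap, with a log2 fold change 1.42 (SE 0.22, edgeR adjusted p = 0.000802, higher in 6 of 6 animals), and BBC3 (1.18) rose as well. PHLDA3 (-1.46), AEN (-0.92) and CCNG1 (-0.69) fell, and MDM2 (0.06) and DDB2 (-0.24) were not called. BBC3, PHLDA3 and CCNG1 were not called against the S0 controls of other animals, at 0.60, -0.92 and -0.32 (edgeR adjusted p = 0.112 to 0.229). CCNG1 fell short of the fold threshold with the GC and length offsets, at -0.29.

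Erythroid genes had the highest list median. Of 33 genes 25 rose and 2 fell (median 1.46). SLC4A1 ranged from 129.8 to 897.3 CPM (median 605.1) in the controls and from 589.1 to 4644.5 CPM (median 2286.4) at Day 210. SLC4A1 (chromosome 16, 55510407 to 55531543), the anion exchanger of the red cell membrane, had a log2 fold change 2.29 (SE 0.37, edgeR adjusted p = 0.00144, higher in 6 of 6 animals), and its groups overlapped. DMTN ranged from 39.9 to 94.1 CPM (median 70.2) in the controls and from 112.3 to 545.6 CPM (median 275.7) at Day 210. DMTN, which binds the red cell skeleton, did not overlap between groups, with a log2 fold change 1.99 (SE 0.34, edgeR adjusted p = 0.00203, higher in 6 of 6 animals). The transcription factors GATA1 (1.46), KLF1 (1.46) and TAL1 (1.21), the erythropoietin receptor EPOR (1.71), the haem enzymes ALAS2 (1.31) and FECH (1.48) and HDAC11 (1.82) rose. The globins were the exceptions. HBB ranged from 31.4 to 225.8 CPM (median 87.1) in the controls and from 6.60 to 57.4 CPM (median 28.4) at Day 210. Both HBB (-1.63, edgeR adjusted p = 0.0247) and HBA (-1.49) fell. The depletion kit also targets globin RNA and near-identical globin genes share reads, so these values are uncertain, and the part of the depletion was not tested. HBB was not called without B1003 (-1.67, edgeR adjusted p = 0.0643) or without B2502 (-1.48, edgeR adjusted p = 0.0939), and its log2 fold change against S0 controls of other animals had the opposite sign, 1.14 (edgeR adjusted p = 0.146). Against those controls 12 erythroid genes were higher. SLC4A1, KLF1, EPOR, ALAS2 and HBA were not called against the S0 controls of other animals, at 1.32, 0.88, 1.59, 1.02 and 1.87 (edgeR adjusted p = 0.0575 to 0.250), so HBA also had the opposite sign there.

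Platelet and megakaryocyte genes rose in 15 of 23 cases (median 0.91). NRGN ranged from 101.1 to 298.8 CPM (median 172.7) in the controls and from 318.4 to 1607.5 CPM (median 462.6) at Day 210. NRGN, a calmodulin-binding protein abundant in platelets, did not overlap between groups, with a log2 fold change 1.64 (SE 0.33, edgeR adjusted p = 0.00424, higher in 6 of 6 animals). The glycoproteins GP1BB (1.64), GP6 (1.44), GP1BA (1.42) and ITGA2B (1.42) rose, and PPBP (0.44) and CLEC1B (0.39) were not called. Against the S0 controls of other animals 0 of 23 genes were called by edgeR (median 1.001), 9 had an unadjusted p under 0.05, and the named genes that rose were among those not called. NRGN, GP1BB, GP6, GP1BA and ITGA2B were not called against the S0 controls of other animals, at 0.44, 1.02, 1.001, 0.69 and 1.04 (edgeR adjusted p = 0.174 to 0.519).

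Genes of cytosolic ribosomal proteins fell in 51 of 75 cases (median -0.83). RPS23 ranged from 76.6 to 280.8 CPM (median 194.4) in the controls and from 23.5 to 65.3 CPM (median 47.7) at Day 210. RPS23, a protein of the small subunit, showed no overlap of the groups, with a log2 fold change -1.90 (SE 0.17, edgeR adjusted p = 3.80e-05, lower in 6 of 6 animals). RPL17 (-1.81) and RPS20 (-1.73) fell by similar amounts. These genes took 1.29% to 2.90% of the counts in the controls and 0.780% to 1.21% at Day 210. They are short, and many have processed pseudogenes that can share their reads. With the GC and length offsets 37 were lower (median -0.58), and against S0 controls of other animals 27. RPS23, RPL17 and RPS20 were not called against the S0 controls of other animals, at -0.79, -0.78 and -0.94 (edgeR adjusted p = 0.115 to 0.201). Of 34 proteasome genes 9 fell (median -0.30), 2 with the offsets and 0 by edgeR against the S0 controls (4 at an unadjusted p under 0.05). This count and those that follow are read beside the 16.8% of all tested genes called lower. Of 32 replication and mitosis genes 14 fell and 0 rose, among them KIF11 (-1.14), MCM3 (-0.97) and TOP2A (-0.92), and 7 with the offsets. Interferon-stimulated genes fell in 9 of 35 cases, including IFI27 (-1.56) and ISG15 (-1.40), while CMPK2 rose (1.58). KIF11, TOP2A, IFI27 and ISG15 were not called against the S0 controls of other animals, at -0.57, -0.46, -0.99 and -0.70 (edgeR adjusted p = 0.193 to 0.400). IFI27 was not called with the GC and length offsets, at -1.27 (edgeR adjusted p = 0.0768).

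Among all tested genes, the 5 highest by the naming rule were SOCS3, COL9A2, CSTA, CD177 and LILRB4, and the 5 lowest were WNT7B, SOX5, MS4A2, DENND2A and CD79B. That rule admitted only called genes that moved the same way in 6 of 6 animals. SOX5 ranged from 14.5 to 105.4 CPM (median 37.6) in the controls and from 2.25 to 10.6 CPM (median 4.28) at Day 210. SOX5 (chromosome 11, 24811802 to 25853531), a transcription factor gene also expressed by B cell subsets, did not overlap between groups, with a log2 fold change -3.05 (SE 0.42, edgeR adjusted p = 0.000680, lower in 6 of 6 animals). WNT7B, a secreted Wnt ligand, and DENND2A, a GTPase regulator, fell by 3.05 and 2.87 on the log2 scale. COL9A2 ranged from 13.1 to 77.98 CPM (median 25.9) in the controls and from 45.3 to 672.5 CPM (median 218.3) at Day 210. COL9A2, a chain of type IX collagen, had a log2 fold change 3.01 (SE 0.42, edgeR adjusted p = 0.000779, higher in 6 of 6 animals). CSTA ranged from 0.0824 to 1.03 CPM (median 0.678) in the controls and from 0.749 to 17.4 CPM (median 5.09) at Day 210. CSTA, a protease inhibitor of myeloid cells and of epidermis, had a log2 fold change 3.003 (SE 0.54, edgeR adjusted p = 0.00156, higher in 6 of 6 animals). Blood was taken through lanced skin, so keratinocyte genes were read beside it. KRT5 and KRT14 reached at most 0.165 and 0.143 CPM in the controls and 0 and 0.121 CPM at Day 210, and KRT1 was 0 in all 12 libraries. Other genes of the list were detected, with maxima over the controls and over Day 210 of 28.6 and 26.2 CPM for SBSN, 11.1 and 16.5 CPM for DSP, 9.34 and 7.88 CPM for KRT10, 2.96 and 4.01 CPM for TP63 and 1.92 and 10.4 CPM for DSC3. The summed level of the list was 25.6 to 44.3 CPM in the controls and 15.8 to 53.3 CPM at Day 210, and 3 of its 14 genes were 0 in all 12 libraries. Of 6 tested keratinocyte genes only DSC3 was called (1.65). DSC3 was not called against the S0 controls of other animals, at 0.96 (edgeR adjusted p = 0.298). The part of skin cells in the CSTA result was not tested.

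Most genes of the further lists were not called, and their counts are read beside the 12.7% of all tested genes called higher and 16.8% called lower. Of 33 hypoxia and glycolysis genes 11 rose, led by PFKFB3 (1.90) and HK3 (1.64), BNIP3 (-0.62) fell, and HIF1A was not called (0.52). EPAS1 rose by 1.43 but not against S0 controls of other animals, at -0.000939 (edgeR adjusted p = 0.999). In the TGF-beta pathway 4 of 22 genes rose, among them ENG (1.23), TGFBI (1.18) and TGFB1 (0.78) (with 7 genes at an unadjusted p under 0.05 and 0 called by edgeR against S0 controls of other animals). ENG was not called without B1503 (0.97, edgeR adjusted p = 0.0719). BNIP3, ENG, TGFBI and TGFB1 were not called against the S0 controls of other animals, at -0.53, 1.54, 0.80 and 0.01 (edgeR adjusted p = 0.110 to 0.976). BNIP3 was not called with the GC and length offsets, at -0.31 (edgeR adjusted p = 0.290). Of 17 clock genes BHLHE41 alone fell (-1.73). Among other genes named by the rule, DCAF12 rose (1.58), CCDC141 fell (-3.77), and JADE2 (-0.45), PLXNA2 (-0.32), SUCNR1 (0.22) and LPL (0.11) were not called. CCDC141 did not fall in B1003 (0.19) and changed by -4.90 to -1.23 in the other animals. JADE2 was called without B1505 (-0.62, edgeR adjusted p = 0.00387).

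**Figure D2:**
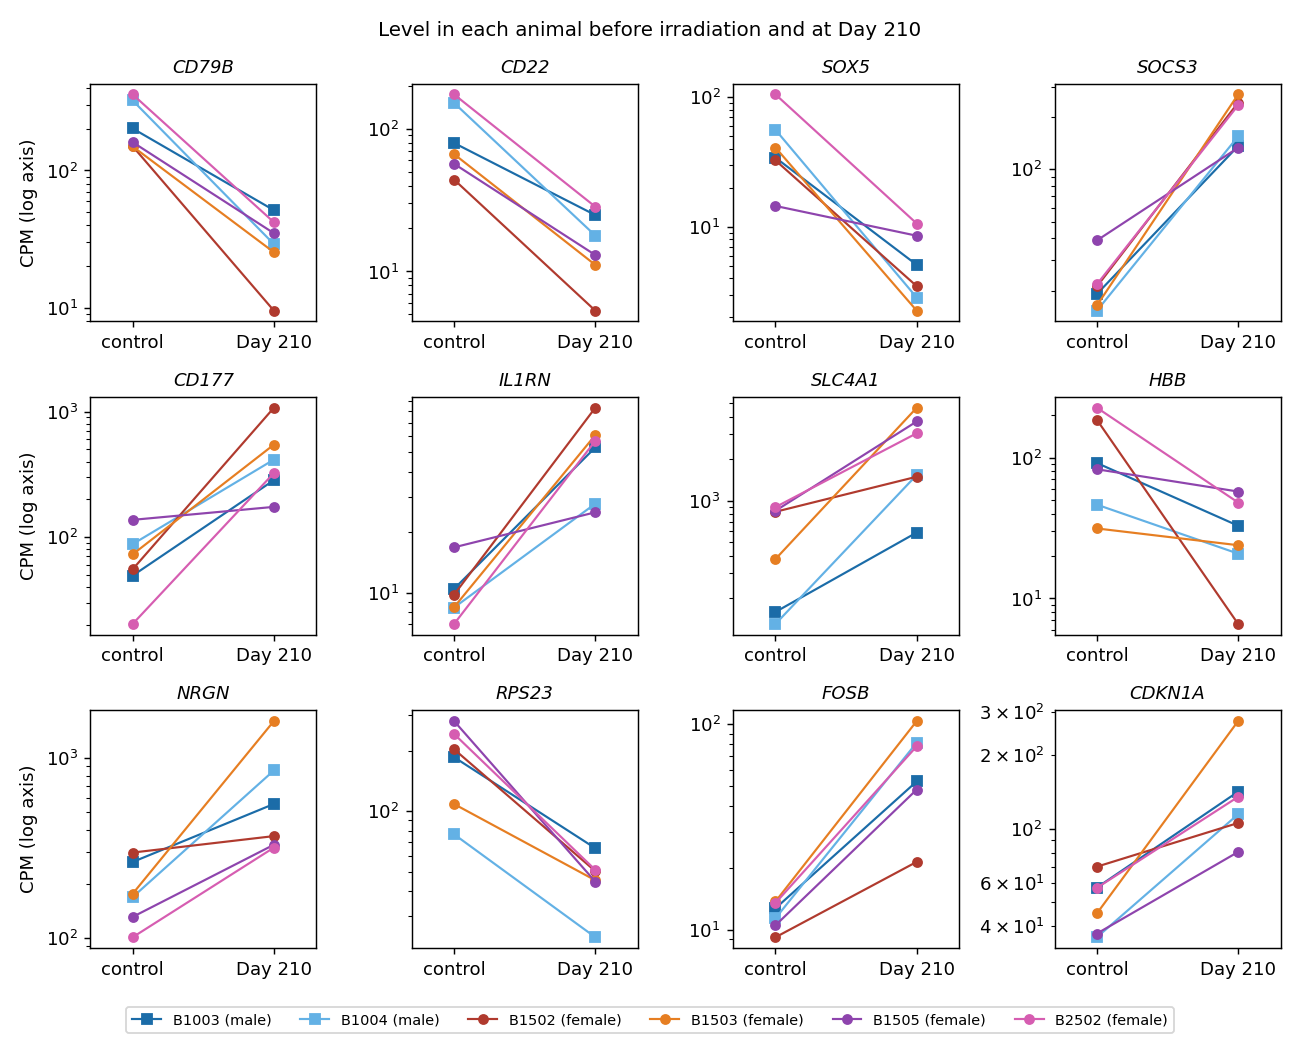
CPM of 12 genes (log axis) in the control and the Day 210 library of each animal, with lines joining the libraries of 1 animal and squares for males. CD79B, CD22 and SOX5 fell and SOCS3, CD177 and FOSB rose in all 6 animals, while HBB fell in all 6 and SLC4A1 rose in all 6 with overlapping groups.

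The list medians varied between animals. The B cell list median was below 0 in each animal, from -2.86 in B1502 to -1.22 in B1003. In B1505 the mature neutrophil median was 0.13 and the monocyte median -0.29, whereas the other 5 animals had neutrophil medians of 0.92 to 1.88 and monocyte medians of 0.49 to 1.41. B1502 stood apart in the erythroid and platelet lists, with medians of -0.13 and -0.18, against 0.93 to 2.38 and 0.33 to 2.32 in the others. Interferon medians ran from -0.98 in B1004 to 0.64 in B1502. Immediate early medians were above 0 in all 6, from 0.52 to 1.04, and ribosomal protein medians below 0 in all 6, from -1.50 to -0.20.

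**Figure D3:**
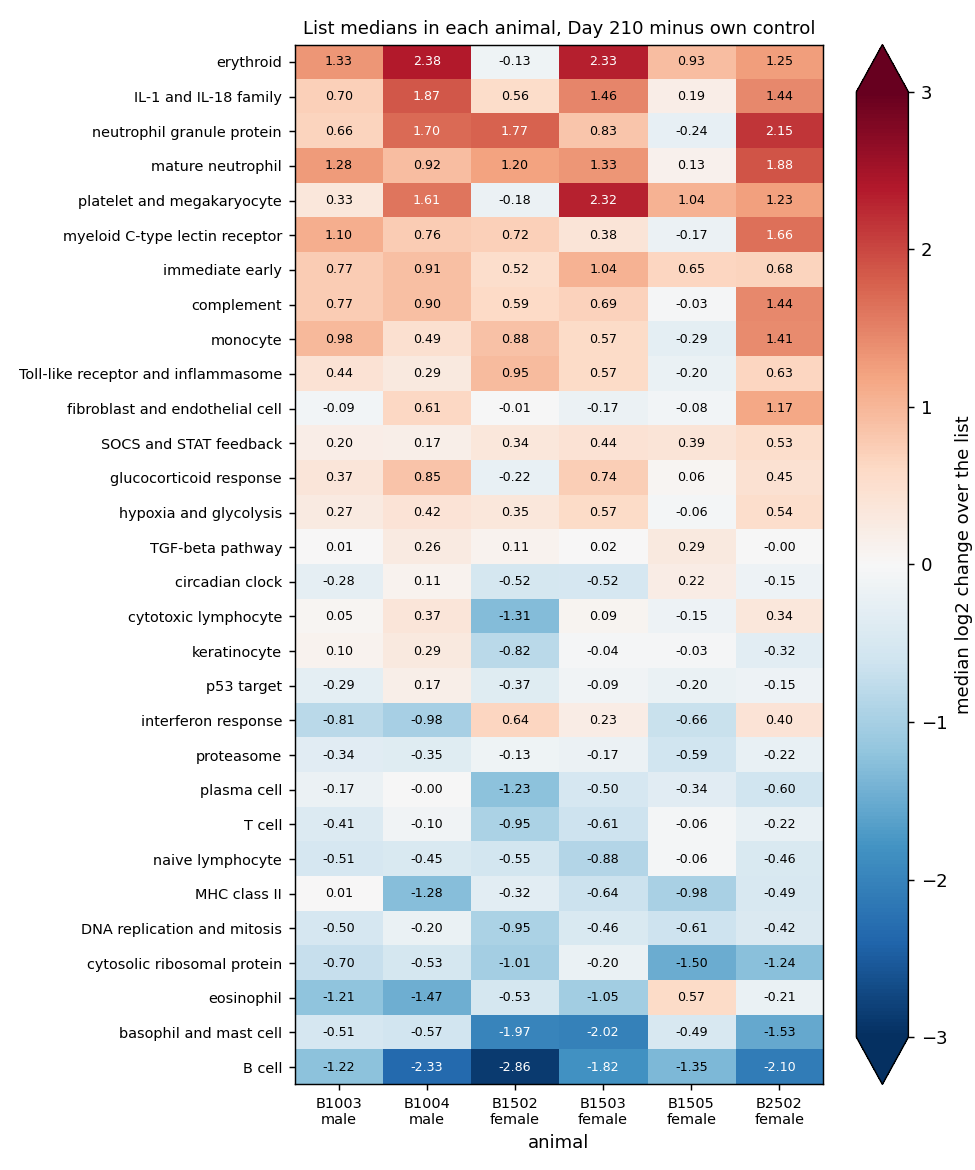
Median log2 change of each list (rows) in each animal (columns), Day 210 minus own control, with colours limited to 3 in either direction. The B cell row is below 0 and the immediate early row above 0 in all 6 animals, and B1505 has the lowest mature neutrophil value (0.13).

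The change was also compared between the 4 females and 2 males. No gene passed the test of the difference by edgeR (0% of those tested), 146 genes had an unadjusted p under 0.05, and DESeq2 called 1 gene, the eosinophil peroxidase EPX. Only 2 males were available.

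To place Day 210 in time, it was compared with Day 30, Day 180 and Day 240 of the same 6 animals. These comparisons share the Day 210 libraries with each other and with the comparison to controls. Against Day 180, where every library also ends in S0, 418 genes were higher and 678 lower (3.04% and 4.93% of tested genes, 7.97% together). With the GC and length offsets 127 were called. Of the called genes 418 of 1096 were higher, against 503 of 1060 with TMM scaling and 703 of 1388 with DESeq2. Single animals moved the count, to 287 without B1003, 184 without B1004, 376 without B1503 and 1668 without B1502, and without B2502 35 were higher and 96 lower. The median fold change ran from -0.38 in the fifth of genes lowest in GC to 0.28 in the highest. Of 27 B cell genes edgeR called 0 (median 0.11), with 3 at an unadjusted p under 0.05 and 1 called by DESeq2. SOCS3 ranged from 32.8 to 131.5 CPM (median 81.7) at Day 180 and from 129.003 to 261.8 CPM (median 188.4) at Day 210, with a log2 fold change 1.35 (SE 0.24, edgeR adjusted p = 0.0126, higher in 6 of 6 animals). Erythroid genes were higher in 16 of 33 cases (median 0.70), and in 1 with the offsets. Ribosomal protein genes were lower in 43 of 75, and in 18 with the offsets. Of the genes the rule names, PROSER2, IGF2 and DOC2B were highest and RAD51AP1, CD36 and IFNG lowest, and of these 6 only CD36 (-2.30) was also called with the offsets. Each of the other 5 lost its call when some single animals were left out. DOC2B, IFNG, IGF2, PROSER2 and RAD51AP1 were not called without B2502, at 1.37, -2.29, 1.57, 1.42 and -3.09 (edgeR adjusted p = 0.0538 to 0.112). IFNG, IGF2, PROSER2 and RAD51AP1 were not called without B1003, at -2.14, 1.35, 1.54 and -2.99 (edgeR adjusted p = 0.0519 to 0.104). DOC2B, IFNG and PROSER2 were not called without B1004, at 1.64, -1.96 and 1.73 (edgeR adjusted p = 0.0546 to 0.0868). IFNG and PROSER2 were not called without B1503, at -2.20 and 1.43 (edgeR adjusted p = 0.0533 to 0.116).

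Against Day 240, where 2 of 6 libraries do not end in S0, 655 genes were higher and 1146 lower (4.76% and 8.33%, 13.1% together), 70 in all with the GC and length offsets. The count was 313 without B1505, 432 without B1003, 837 without B1004, 935 without B1503 and 2850 without B2502. Here the median ran from -0.48 to 0.38 from the lowest to the highest GC group. Platelet genes were higher in 14 of 23 cases (median 1.21) and edgeR called 0 with the offsets (18 at an unadjusted p under 0.05). Interferon genes were lower in 10 of 35 and erythroid genes in 6 of 33. B cell genes had a median of 0.28 with 1 higher. VSIG2 ranged from 4.03 to 11.2 CPM (median 5.89) at Day 240 and from 14.9 to 69.6 CPM (median 21.4) at Day 210. VSIG2, an immunoglobulin-domain protein, had a log2 fold change 2.095 (SE 0.32, edgeR adjusted p = 0.00365, higher in 6 of 6 animals) and was also called with the offsets. KIRREL1 (2.66) and PLXNB3 (2.08) rose and RAD51AP1 (-2.95), CCDC168 (-2.90) and PFDN4 (-2.78) fell, and none of these 5 was called with the offsets. CCDC168 and KIRREL1 were not called without B1003, at -2.94 and 2.47 (edgeR adjusted p = 0.0562 to 0.0771). KIRREL1 was not called without B1503, at 2.40 (edgeR adjusted p = 0.0554). CCDC168, PFDN4 and RAD51AP1 were not called without B1505, at -2.36, -2.71 and -2.69 (edgeR adjusted p = 0.0538 to 0.0749).

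Against Day 30, with all libraries ending in S0, 856 genes were higher and 963 lower (6.23% and 7.0%, 13.2% together), and with the GC and length offsets 1184 and 768. With TMM scaling 946 genes were higher and 785 lower, and with DESeq2 1457 and 1045. The count called was 439 without B1503, 550 without B2502, 935 without B1004, 1162 without B1502 and 3004 without B1505. Of 27 B cell genes 24 were lower (median -1.73), and 24 with the offsets. CD79B ranged from 69.7 to 331.2 CPM (median 120.1) at Day 30 and from 9.24 to 49.8 CPM (median 31.02) at Day 210, with no overlap and a log2 fold change -2.31 (SE 0.37, edgeR adjusted p = 0.00447, lower in 6 of 6 animals). Mature neutrophil genes were higher in 17 of 23 cases (median 1.32), IL-1 and IL-18 family genes in 9 of 15 and platelet genes in 14 of 23. CD177 (2.63), IL1R2 (2.61) and SOCS3 (2.39) were higher without overlap of the groups. Of all tested genes 681 (4.95%) had no overlap between these days. COL9A2 was higher by 2.66, and CCDC141 (-3.45), RAD51AP1 (-3.19) and TCL1A (-3.16) were lower. Erythroid genes had a median of -0.03, with 1 higher and 1 lower.

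**Figure D4:**
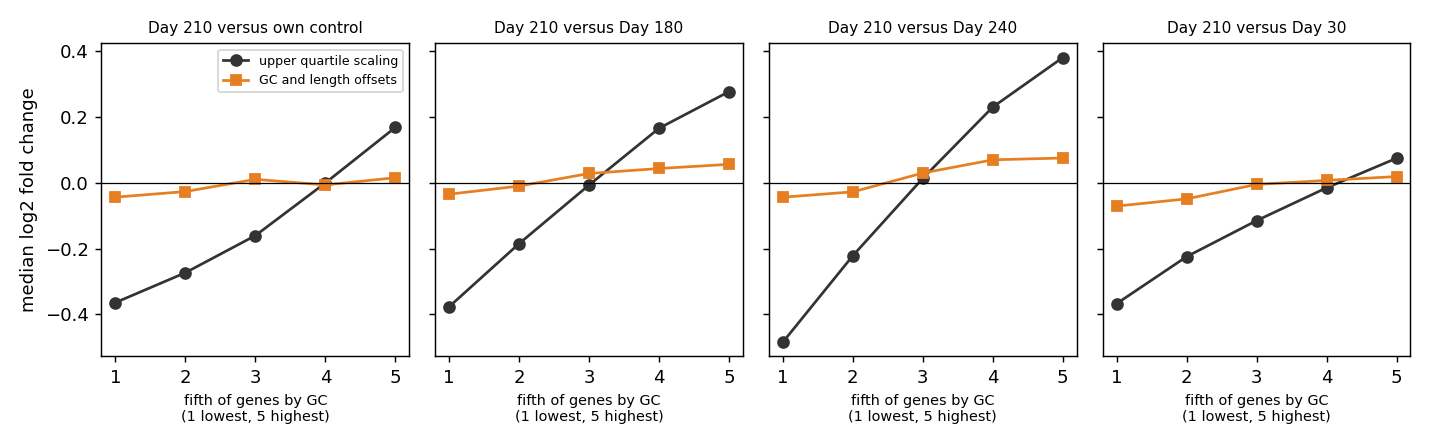
Median log2 fold change (y axis) of the tested genes in 5 equal groups by GC content (x axis) for the 4 comparisons, with upper quartile scaling (circles) and with GC and length offsets in each library (squares). With upper quartile scaling the medians rise with GC in all 4 panels, and the lowest and highest GC groups lie nearer to 0 with the offsets.

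Over the 16 draws of the same animals, the B cell list median, taken over animals, was -1.04 on Day 3, and -0.01 by Day 60. It then stood at -1.41 on Day 120, -1.96 on Day 210 and -1.45 at the last draw (Day 270). The mature neutrophil median was -1.11 on Day 60, 0.58 on Day 180 and 1.24 on Day 210 (0.13 to 1.88 over animals). It was -0.23 on Day 240 (-0.65 to 2.93 over animals) and 0.51 on Day 270. In the paired test against Day 240, 2 of 23 mature neutrophil genes were higher at Day 210 (median 0.59), where 4.76% of all tested genes were. For Day 180, 210, 240 and 270 the platelet list stood at 0.41, 1.13, -0.03 and 0.94. Ribosomal protein genes stood at -0.40, -0.86, 0.22 and -0.18 on the same days. These medians describe the draws and were not tested as a series.

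**Figure D5:**
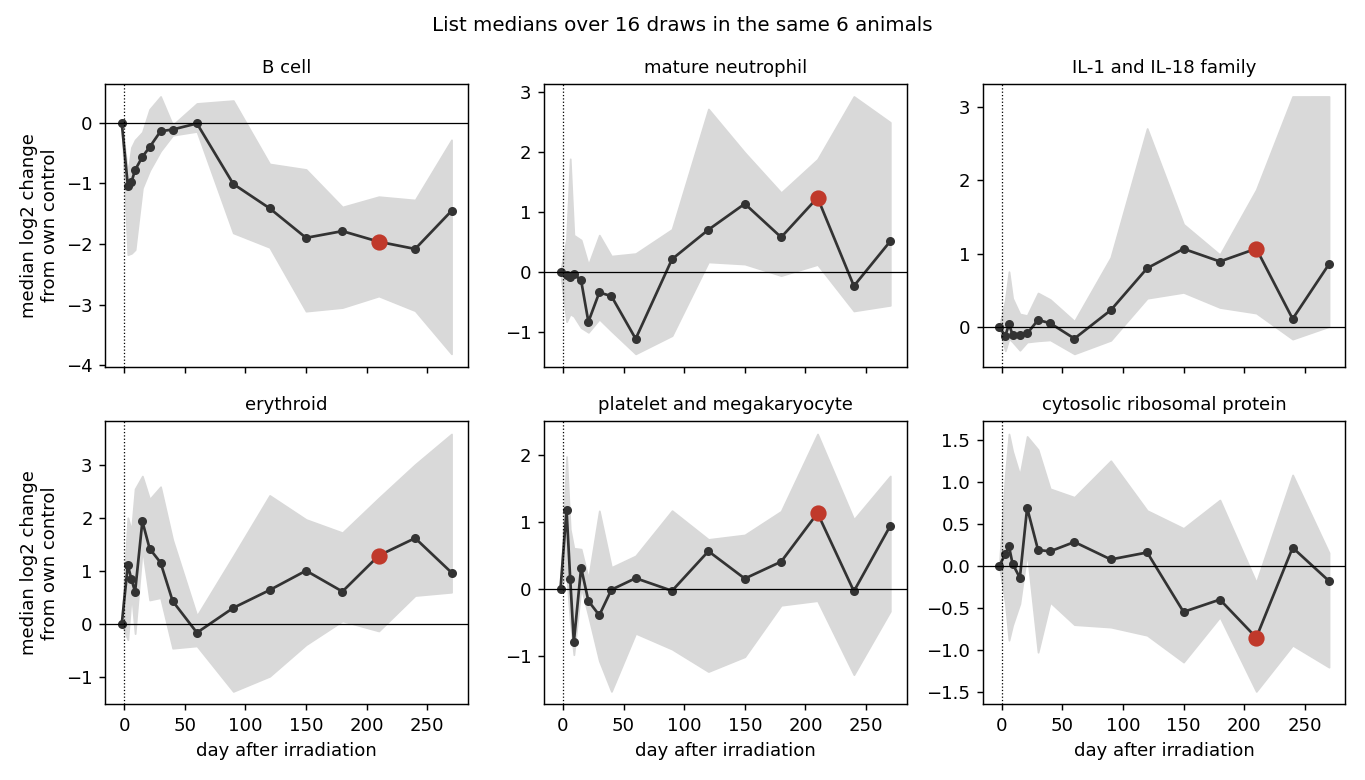
List medians as log2 change from own control (y axis) over days after irradiation (x axis) in the 6 animals; the line is the median over animals, grey the lowest to highest animal, and the red point Day 210. The B cell median is -0.01 on Day 60 and -1.96 on Day 210.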

How the data were processed

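Whole blood RNA was sequenced after depletion of ribosomal RNA. The authors trimmed paired reads, mapped them to the Mmul_10 assembly and tallied reads per RefSeq gene, and the submitters' processing notes name cutadapt 2.10, STAR 2.7.6a and Subread 2.0.1. The deposited table holds whole counts of 21070 genes, and a second table deposited by the authors holds log2 values of 16730 genes scaled by the upper quartile. The paper also describes a conditional quantile normalization against GC content. It does not say whether the deposited log2 values include that step. Whether counting used the read strand is not given in the sources used here, so overlapping and antisense genes cannot be told apart.

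The 13751 genes tested had 3 counts or more in 80% or more of the 304 libraries. Animals were the block in the quasi-likelihood test of edgeR 4.0.16 (R 4.3.3) on these counts, which used upper quartile scaling, and p-values were adjusted after Benjamini and Hochberg over all tested genes. Standard errors were derived from F, and log2 CPM per animal used a prior count of 2. Same-animal libraries deviated together from the group means (correlation 0.190 to 0.564 over genes), and the pairs come from the animal numbers in the labels. Among the 30 pairs of libraries within the control and Day 210 groups, 0 had identical counts, the chi-square of their counts over genes was at least 21.9 per degree of freedom (about 1 for sampling noise alone), and log2 CPM correlated at 0.916 to 0.966 over genes. P-values cover 6 animals and single libraries.

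The members and the gene lists, written by hand, were chosen with earlier results of these data known. Named genes were, per list, up to 3 with the largest called change moving the same way in 6 of 6 animals. Added were the 5 highest and 5 lowest of all such genes with a symbol and a mean of at least 1 CPM. The 3 highest and 3 lowest for each other day were taken in the same way. A further 17 genes were those named in the study or by earlier results of these data, or typical of steroid treatment. Other list members are named to show calls and non-calls, and were picked after their values were seen. The alternatives were TMM scaling, DESeq2 1.42.0, other filters, no block, single animals left out, all days in 1 fit, limma 3.58.1 on the log2 values, S0 controls of other animals and no fold threshold. Offsets for GC content and transcript length (lowess, span 0.3) were added after seeing the data. The main edgeR fit, DESeq2, the offset fit and limma were tested on simulated counts of the Day 210 and control libraries. The other alternatives and the test between the sexes were not. Figures used Matplotlib 3.10.9. Mitochondrially encoded genes were not analysed here, and some list members are not reported here.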

Additional observations from a re-analysis of the deposited data

Results flagged for a closer look

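The control and Day 210 groups of 6 libraries were checked for each named gene, and 11 groups (5.14% of those checked) had 1 library whose gap to its nearest neighbour exceeded Dixon's critical value, where chance gives about 1 in 20. At Day 210, 4 of these were in B1502. SUCNR1 was 16.9 CPM against 3.15 to 3.88 CPM in the other 5, PSMA4 was 34.4 CPM against 14.1 to 15.9 CPM in the other 5, CDC45 was 0 CPM against 0.901 to 2.098 CPM in the other 5, and WNT7B was 0 CPM against 0.707 to 1.33 CPM in the other 5. CD28 in B1505 at Day 210 was 85.4 CPM against 27.6 to 40.8 CPM in the other 5, and RPL17 in B1004 at Day 210 was 21.97 CPM against 32.5 to 37.7 CPM in the other 5.

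Among the controls, B1004 stood apart for DOC2B (9.13 CPM against 1.61 to 2.15 CPM in the other 5) and IL7R (372.9 CPM against 617.1 to 806.9 CPM in the other 5). The control of B2502 had ITGAM at 106.4 CPM against 185.3 to 239.2 CPM in the other 5, that of B1505 had SOCS3 at 38.9 CPM against 15.3 to 21.7 CPM in the other 5, and that of B1003 had SUCNR1 at 17.6 CPM against 1.65 to 3.97 CPM in the other 5.

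EPX, the peroxidase of eosinophil granules, changed differently in females and males by DESeq2, with a difference of 3.35 on the log2 scale (female minus male, SE 0.68, DESeq2 adjusted p = 0.0142). The change ran from -1.19 to 2.24 in the 4 females and from -2.94 to -2.69 in the 2 males. By edgeR the difference was 3.19 and was not called (edgeR adjusted p = 1.000).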

How the results depend on the processing

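The share of tested genes called against own control (29.5%) kept its count within 1.5 times under TMM scaling, DESeq2, both other filters, limma, 1 fit over all days, no replicate block (24.7% of genes), the GC and length offsets and no fold threshold, and it was 23.7% to 32.9% with 1 animal left out. It was 13.1% against S0 controls of 4 other animals, a smaller and unpaired comparison, where EPAS1 (-0.000939), HBB (1.14) and PSMA2 (0.00560) changed sign on the log2 scale. The shares against other days were less stable. Their values were 7.97%, 13.1% and 13.2% for Day 180, Day 240 and Day 30. With the GC and length offsets 0.924% of genes were called against Day 180 and 0.509% against Day 240. With limma on the deposited log2 values the shares are of 16730 genes. They were 0%, 2.98% and 4.99% against Day 180, Day 240 and Day 30 (3904 genes at an unadjusted p under 0.05 for Day 180). Without the replicate block the shares were 2.64% and 6.04% for Day 180 and Day 240. The fit over all days gave 22.97% against Day 30. With 1 animal left out the ranges were 0.953% to 12.1% for Day 180, 2.28% to 20.7% for Day 240 and 3.19% to 21.9% for Day 30. DESeq2 called 1 gene (0.00727%) in the test between the sexes. Among the calls of named genes, 18 were lost with the offsets, 12 without the replicate block, 1 with TMM scaling and 44 against the S0 controls, the 3 that changed sign included. The cause of these changes was not tested, beyond the smaller number of animals in some fits. Day 210 libraries held fewer counts than the controls, so genes at a few CPM are the least precise.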
